A study of Mus musculus with 26 samples.

Results

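The genes described here are 30 genes of cholesterol supply in the mouse: 8 that carry acetyl-CoA to squalene, 10 that carry squalene to cholesterol, 4 that sense sterols and switch the pathway on, 6 that take up, store and move cholesterol within the cell, and 2 that export it. They were chosen by name as members of the pathway, with no threshold on a measured value, and were matched by Ensembl identifier and symbol. All 30 were found among the 57186 genes of the table that covers the Fgf9 deletions and among the 31053 genes of the table that covers the Meis1 knockout. All 30 also passed the filter on low counts in both tables, so that no member dropped out of the tests.

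Their levels were measured by RNA sequencing of XY gonads taken at the embryonic stage E13.5, when the testis has just formed, in 26 samples of 6 groups. Wild type (WT) had 3 samples. Mutants at Fgf9, which encodes a growth factor that promotes testis fate in the XY gonad, carried 1 of 4 deletions, named Δ306 (3 samples), Δ225 (6), Δ104 (4) and Δ93 (6). A knockout (KO) of Meis1, a homeobox transcription factor gene, had 4 samples. The boundaries and zygosity of the deletions, the strain, the Cre or other means behind the Meis1 KO and the number of gonads per sample are not given in the sources used here. The Meis1 KO, Δ104, Δ225 and Δ93 samples are numbered as biological replicates and the WT and Δ306 samples only as replicates. The spread between the latter may therefore be technical. For the deletions the p-values rest on 1 estimate of the spread per gene over all 22 libraries of WT and the 4 deletions. For the Meis1 KO they rest on the 7 libraries of the KO and WT.

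Cholesterol is built from acetyl-CoA through mevalonate and the isoprenoids to squalene, which is closed into lanosterol and trimmed to cholesterol in the endoplasmic reticulum. When sterols run low, Scap escorts the SREBP factors (from Srebf1 and Srebf2) to the Golgi for cleavage, and the released factors switch on most genes of the pathway; Insig1 holds the complex back when sterols are plentiful. Cholesterol also enters cells from lipoproteins, through the scavenger receptor Scarb1 among others, is stored as esters made by Soat1, and leaves through Abca1 and Abcg1. Fetal Leydig cells, the androgen-making cells of the fetal testis, convert cholesterol to pregnenolone with Cyp11a1 and are therefore a site of high cholesterol demand. The genes were read here beside the markers of those cells.

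Total counts ran from 11.6 to 53.4 M per library in the table of all deletions and from 35.5 to 51.7 M in the Meis1 table. Fgf9 stood at 9.21 to 9.85 counts per M counts (CPM) in WT and at 2.17 to 2.94 in Δ306, 2.72 to 6.98 in Δ104 and 2.30 to 4.75 in Δ93. In Δ225 it stood at 3.69 to 6.36 CPM in 5 libraries and at 16.5 CPM in the library labelled Δ225 replicate 3, above every WT library. Meis1 was at 0.201 to 0.695 CPM in the Meis1 KO and 62.1 to 109 CPM in WT. The summed CPM of 4 Y-linked genes was 31.2 to 77.2 in WT and under 10% of the lowest WT value in 7 libraries: Δ104 replicate 3, Δ225 replicate 4, Δ306 replicate 3 and Δ93 replicates 3 to 6. These go against an XY label on that measure. Xist, which is high in XX cells, was at most 0.185 CPM in WT. It reached 6.42 CPM in Δ93 replicate 4, which also had the lowest Y-linked sum, and 3.12 CPM in Δ225 replicate 2. In the rest of the 7 libraries Xist was at 0.0766 to 0.671 CPM. The results were also fitted without those 7, called the low-Y libraries. Of the mutant libraries kept, only Δ104 replicate 4, at 36.2 CPM, reached the WT range of Y-linked sums. The others lay below WT, at 5.16 and 5.41 CPM in Δ104 and 7.40 to 20.5 CPM in Δ225. Those of Δ306 had 11.2 and 11.7 CPM and those of Δ93 had 6.60 and 3.96 CPM. The WT libraries stood apart from each other in germ-cell markers, whose sum was 12.01 CPM in WT replicate 1 and up to 645 CPM in the others.

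The WT libraries were counted separately for the 2 tables, and 8 of the 30 members changed their WT count by more than the 0.95 to 1.1 times within which the other 22 lay. Fdps had 7.99 times, Idi1 4.23 times and Acat2 1.51 times the counts in the table of all deletions. Insig1 had 1.12 times, Lss 0.935, Hmgcs1 0.862, Npc1 0.798 and Scap 0.787 times. Over the 14237 genes with at least 100 counts the median was 1.01 times. Levels are therefore compared only within a table, and those of Fdps, Idi1 and Acat2 (the cytosolic acetoacetyl-CoA thiolase, which has the close relative Acat3) are uncertain.

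In WT gonads genes of all 5 roles were expressed. On a scale of CPM per kilobase of exon, Hmgcs1, which makes HMG-CoA from acetyl-CoA units, had the highest level at 51.9 ± 8.38 (SD, n = 3). Fdps, which makes farnesyl diphosphate, followed at 39.9 ± 5.58, Srebf2 at 37.0 ± 2.93, Acat2 at 36.5 ± 3.47 and Scarb1 at 34.7 ± 8.97. The lowest levels per length were those of Abcg1 at 4.86 ± 1.55, Npc1, a lysosomal cholesterol exporter, at 3.94 ± 0.19, and Tm7sf2, a sterol C14 reductase, at 3.16 ± 0.74. Of all neighbours in the order of the 30 levels, only Stard4 (10.3 to 11.6) and Ebp (5.84 to 7.13) did not overlap between the 3 WT libraries, so most genes cannot be ranked against the next one. Genes further apart in the order could be separated: Hmgcs1 (45.2 to 61.3) lay above Srebf2 (35.2 to 40.4) without overlap.

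**Figure D1:**
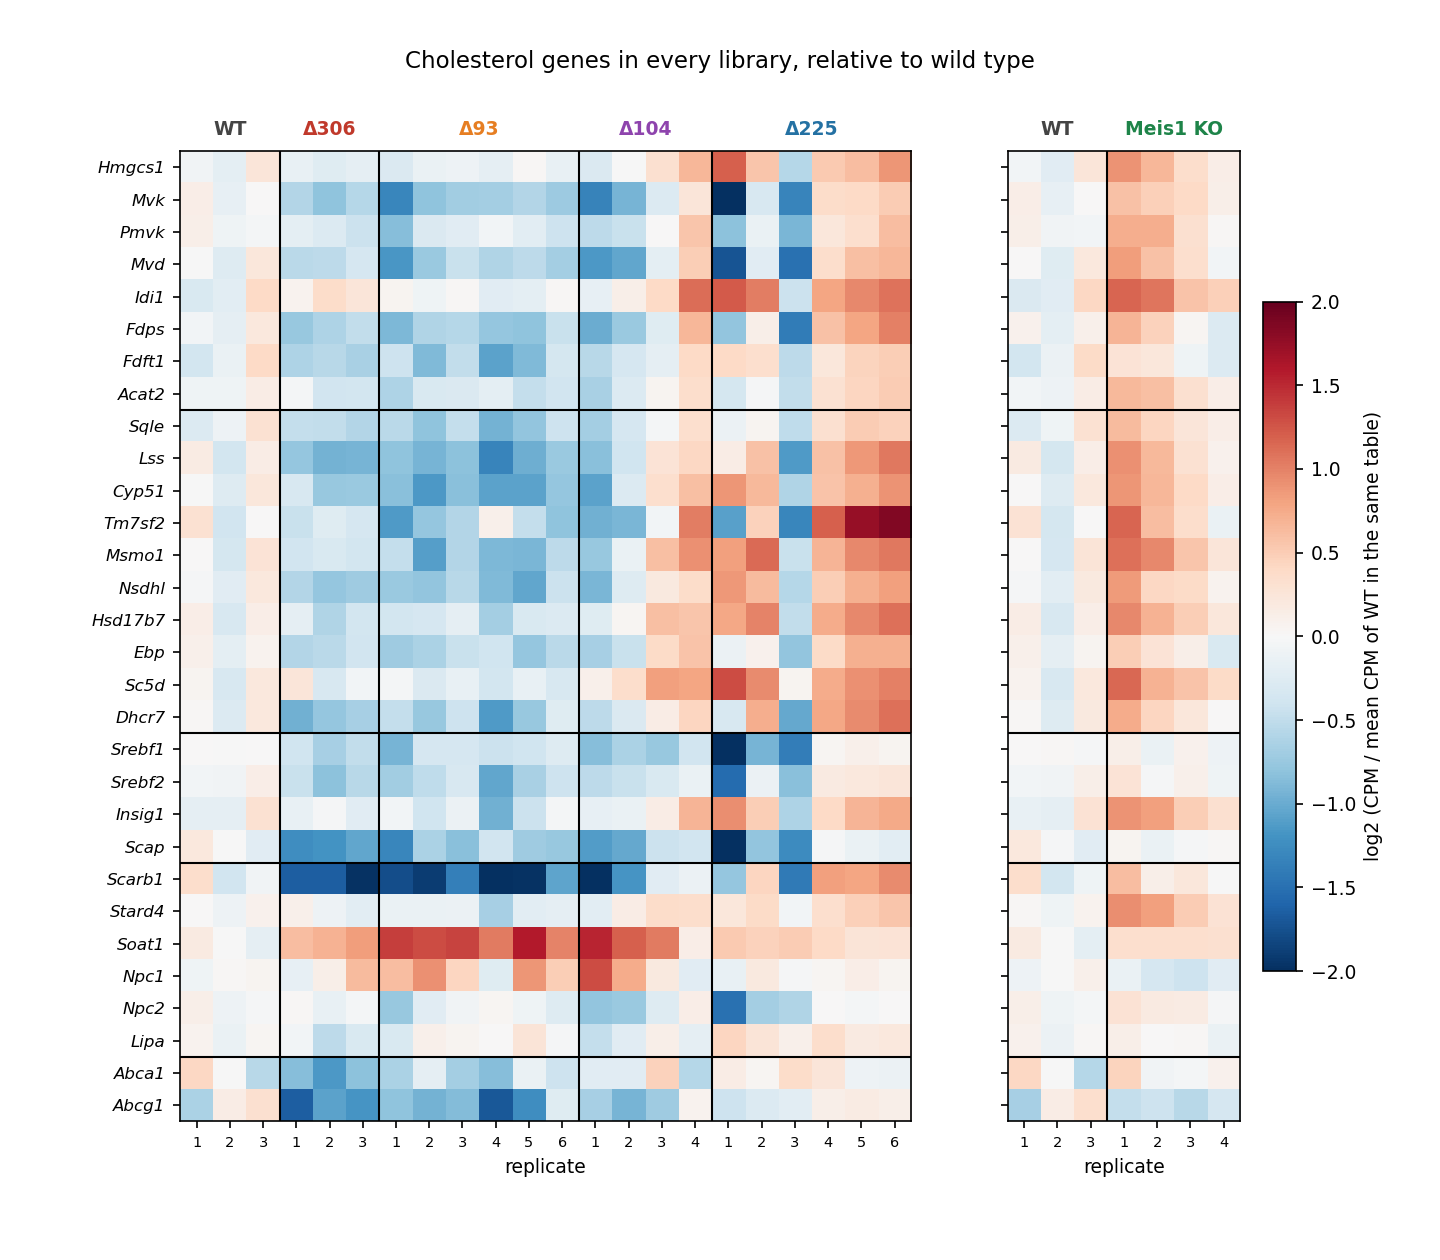
Heat map of the 30 genes (rows, split by horizontal lines into the 5 roles) across libraries (columns, by group and replicate). The 22 libraries of the table of all deletions and the 7 of the Meis1 table have a panel each. Colour is log2 CPM relative to the gene's mean in WT of the same table, clipped at −2 and 2. Most genes of synthesis are below WT in Δ306 and Δ93 and above WT in most Δ225 libraries, Scarb1 is below WT in every Δ306 and Δ93 library, and Soat1 is above WT in them.

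Across the 7 comparisons, a gene was called where its adjusted p was under 0.05, and log2 fold changes are given ± 1 SE. Δ225 against Δ93 had 20 of 30 members called, 19 higher in Δ225 and 1 lower, while 20.8% of all genes tested were called (9.96% higher, 10.8% lower). Δ225 against Δ306 had 14 members called higher and 0 called lower, with 13.2% of all genes called and 6.47% called higher. Against WT, 3 members were called lower in Δ306, where 6.43% of all genes were called and 3.46% were called lower. In Δ93, 5 members were called lower and 1 higher, with 14.1% of all genes called, 7.23% higher and 6.84% lower. No member was called in Δ225 against WT (0.209% of all genes), Δ104 against WT (0.061%) or Meis1 KO against WT (1.8%). The 4 deletions share the WT libraries and both comparisons of Δ225 share the Δ225 libraries, so these counts are not independent of each other.

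The median log2 fold change of the 30 members was 0.82 in Δ225 against Δ93 and 0.72 in Δ225 against Δ306, beside medians over all genes of 0.00 and −0.01. Against WT it was −0.48 in Δ306 (all genes 0.08), −0.57 in Δ93 (0.06), 0.27 in Δ225 (0.04), −0.07 in Δ104 (0.06) and 0.39 in the Meis1 KO (0.00). Without the 7 low-Y libraries, 15 libraries and 10 residual degrees of freedom were left, and edgeR called 0 members in each of the 6 comparisons of that table. Of all genes, that fit called 0.11% in Δ306, 0.0% in Δ225, 0.0% in Δ104 and 0.0396% in Δ93 against WT, 2.4% in Δ225 against Δ93 and 1.06% in Δ225 against Δ306. The members' medians in it were −0.54, 0.22, −0.16, −0.65, 0.83 and 0.74 in that order. All 43 called differences of members kept their sign there and moved by at most 0.34 on the log2 scale, with adjusted p from 0.0563 to 0.45.

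The 10 genes from squalene to cholesterol moved together between Δ225 and the 2 deletions Δ93 and Δ306. All 10 were called higher in Δ225 than in Δ93, with a median log2 difference of 1.22. All 10 were also higher in Δ225 than in Δ306, with a median of 1.16, and 8 of them were called. Their summed level was 607, 521 and 724 CPM in WT and 444, 405 and 411 CPM in Δ306. In Δ93 the sum was 326 at the lowest, 381 at the median and 438 at the highest of the 6 libraries. In Δ225 it was 398 at the lowest, 939 at the median and 1164 at the highest. Every Δ306 and Δ93 library lay below every WT library on this sum, and only the library labelled Δ225 replicate 3 lay within the range of Δ93 while the other Δ225 libraries lay above it.

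**Figure D2:**
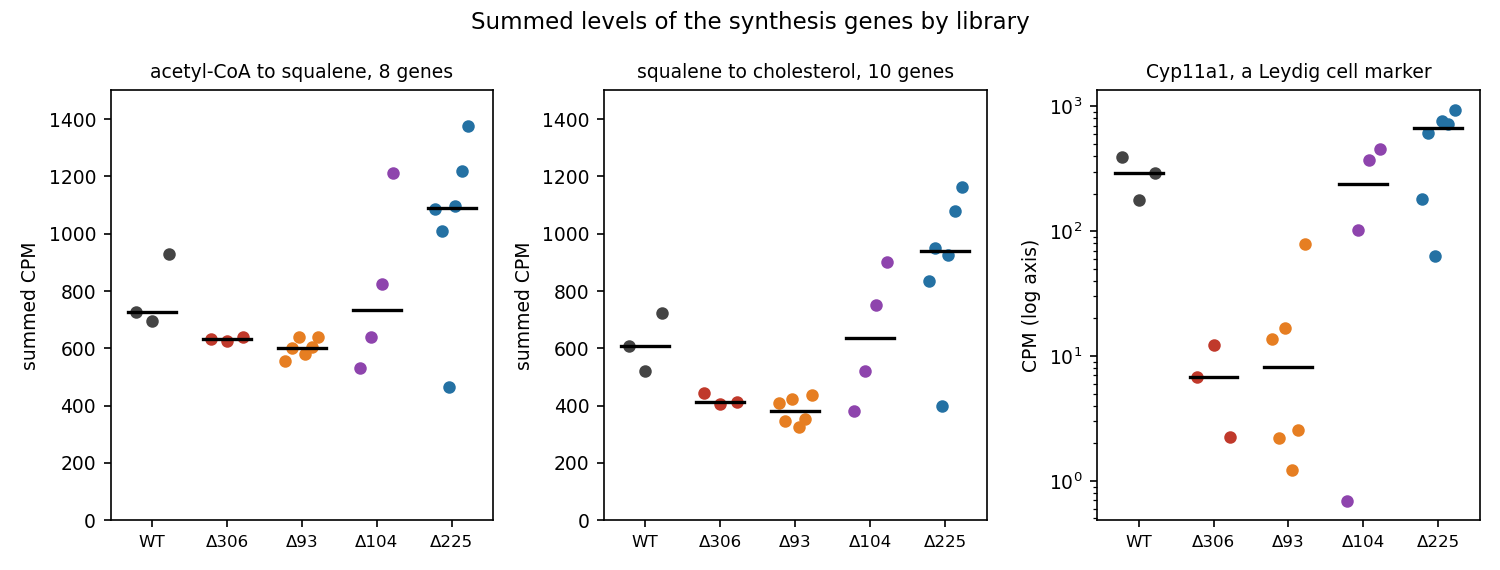
Summed CPM of the genes from acetyl-CoA to squalene and of those from squalene to cholesterol, and CPM of Cyp11a1 on a log axis. Points are libraries, in replicate order within a group, for the groups of the table of all deletions. The black line is the group's median. The 10 genes from squalene to cholesterol sum to 326 to 438 CPM in Δ93 and 405 to 444 CPM in Δ306, below the 521 to 724 CPM of WT.

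Markers of fetal Leydig cells differed between the same groups. The summed CPM of 5 such markers (Cyp11a1, Cyp17a1, Hsd3b1, Insl3, Star) was 902 to 1554 in WT, 39.8 to 91.3 in Δ306, 50.1 to 314 in Δ93 and 452 to 3044 in Δ225. Of the 5, 3 were called lower in Δ306 and 4 in Δ93 against WT. In Δ225, 5 were called higher against Δ93 and 4 against Δ306. None of these 5 markers was at 0 in any library. Of the 6 Sertoli-cell markers 0 were called in Δ306 and 1 in Δ93 against WT, and of the 6 pre-granulosa markers 5 and 6 were called higher, while all 6 were lower in Δ225 than in either deletion. The sum of the Sertoli-cell markers was 1907 to 2359 in WT, 71.1 to 509 in Δ306, 40.8 to 845 in Δ93 and 539 to 2172 in Δ225. That of the pre-granulosa markers was 64.4 to 112 in WT, 378 to 737 in Δ306, 430 to 1088 in Δ93 and 65.4 to 109 in Δ225. Adrenocortical markers summed to 4.66 to 10.05 CPM in WT, 0.658 to 1.01 in Δ306 and 0.822 to 2.48 in Δ93. In Δ225 they summed to 6.14 to 43.6 CPM. Only Δ225 replicate 3 lay within the WT range, and the others, at 22.3 CPM or more, lay above it. Of these 4 markers, 2 were called lower in Δ306 and 3 in Δ93 against WT. In Δ225, 4 were called higher against Δ93, 3 against Δ306 and 0 against WT. Cyp11b2 was at 0 in 15 of the 22 libraries. Endothelial markers summed to 405 to 551 CPM in WT, 264 to 374 in Δ306, 269 to 388 in Δ93 and 253 to 521 in Δ225. Of the 5, Cdh5 was called lower in Δ306, and Cdh5 and Tek in Δ93, against WT. Cdh5 was higher in Δ225 than in either deletion. Of 5 mesonephric markers Wnt9b was called lower in Δ93 than in WT, and Gata3 was called lower in Δ225 than in either deletion. No germ-cell, macrophage or erythroid marker was called in these comparisons. The part of these cell types in the results was not tested, and in bulk tissue fewer cells of a type and less RNA per cell cannot be told apart.

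Cyp51 (chr5:4081145-4104746, minus strand), the lanosterol demethylase, had the smallest adjusted p of the members in any comparison. It stood at 119, 100.3 and 141 CPM in the 3 WT libraries, 95.8, 70.8 and 71.7 in Δ306 and 57.0, 99.5, 152 and 183 in Δ104. The Δ93 libraries had 54.4 at the lowest, 62.5 at the median and 70.2 at the highest. Those of Δ225 had 79.5 at the lowest, 192 at the median and 223 at the highest. Each Δ93 value was below each value of WT and of Δ225, while Δ104 ran from the level of Δ93 to that of Δ225. The log2 fold change was 1.54 ± 0.24 (adjusted p 0.00018) in Δ225 against Δ93, 1.19 ± 0.30 (adjusted p 0.0137) in Δ225 against Δ306 and −0.94 ± 0.28 (adjusted p 0.0274) in Δ93 against WT. Without the low-Y libraries these were 1.59, 1.14 and −1.02 (adjusted p 0.072, 0.195 and 0.248).

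Lss (chr10:76531588-76557138, plus strand), the cyclase that forms lanosterol, had 71.9, 49.96 and 71.0 CPM in WT, 37.4, 33.3 and 33.8 in Δ306 and 36.0, 48.6, 78.0 and 85.5 in Δ104. It had 25.6 at the lowest, 35.0 at the median and 38.5 at the highest in Δ93. In Δ225 it had 29.4 at the lowest, 96.4 at the median and 133 at the highest. WT lay above Δ306 and Δ93 without overlap, and the lowest Δ225 library, replicate 3, lay among the Δ93 values. Lss fell in Δ93 against WT, with a log2 value of −0.92 ± 0.31 (adjusted p 0.0478), and rose in Δ225 against Δ93 by 1.42 ± 0.26 (adjusted p 0.000726) and against Δ306 by 1.38 ± 0.34 (adjusted p 0.0109). In the fit without the low-Y libraries the same 3 values were −0.92, 1.37 and 1.36 (adjusted p 0.335, 0.148 and 0.163).

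Sqle (chr15:59315077-59331192, plus strand), the squalene monooxygenase that opens this stretch of the pathway, had 119.8, 136 and 180.4 CPM in WT, 104.2, 103 and 97.1 in Δ306 and 90.9, 115, 141 and 184 in Δ104. Its values were 75.3 at the lowest, 92.5 at the median and 109 at the highest in Δ93 and 102 at the lowest, 166 at the median and 207 at the highest in Δ225. All 3 WT libraries lay above all of Δ306 and Δ93, and only in Δ93 was the difference from WT called, with a log2 fold change of −0.65 ± 0.21 (adjusted p 0.0442). Sqle was higher in Δ225 than in Δ93 by 0.81 ± 0.18 (adjusted p 0.00275) and than in Δ306 by 0.68 ± 0.22 (adjusted p 0.0457). Leaving the low-Y libraries out made the 3 values −0.70, 0.82 and 0.63 (adjusted p 0.264, 0.186 and 0.296).

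Msmo1 (chr8:64718139-64733792, minus strand), a sterol C4 methyl oxidase, had 71.7, 56.3 and 86.7 CPM in WT, 54.6, 57.8 and 55.5 in Δ306 and 42.5, 65.6, 108 and 135 in Δ104. In Δ93 its values were 33.5 at the lowest, 43.1 at the median and 51.6 at the highest, and in Δ225 they were 52.5 at the lowest, 132 at the median and 156 at the highest. No Δ93 library reached the lowest Δ225 or WT library. The log2 difference was 1.51 ± 0.25 (adjusted p 0.000302) from Δ93 and 1.13 ± 0.31 (adjusted p 0.0217) from Δ306, or 1.57 and 1.16 (adjusted p 0.0869 and 0.201) without the low-Y libraries.

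Nsdhl (chrX:72918557-72958514, plus strand), a dehydrogenase of the same C4 demethylation, had 39.1, 33.8 and 46.1 CPM in WT, 26.3, 23.2 and 24.2 in Δ306 and 20.99, 33.2, 45.2 and 51.1 in Δ104. Its values were 19.4 at the lowest, 23.4 at the median and 29.6 at the highest in Δ93 and 26.6 at the lowest, 63.5 at the median and 72.5 at the highest in Δ225. The Δ225 libraries did not overlap with Δ306, with a log2 difference of 1.26 ± 0.27 (adjusted p 0.00545). From Δ93, which reached above the lowest Δ225 library, it differed by 1.29 ± 0.21 (adjusted p 0.000305). The 2 values were 1.28 and 1.37 (adjusted p 0.114 and 0.0725) without the low-Y libraries.

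Hsd17b7 (chr1:169949535-169969241, minus strand), the ketoreductase that follows Nsdhl, had 35.6, 25.7 and 35.5 CPM in WT, 28.4, 21.4 and 25.0 in Δ306 and 27.3, 33.2, 49.1 and 47.2 in Δ104. It had 20.1 at the lowest, 25.9 at the median and 28.6 at the highest in Δ93, and 23.0 at the lowest, 58.9 at the median and 69.4 at the highest in Δ225. WT overlapped with both Δ306 and Δ93. The difference was 1.11 ± 0.20 (adjusted p 0.000712) for Δ225 against Δ93 and 1.13 ± 0.26 (adjusted p 0.00753) against Δ306, and without the low-Y libraries 1.14 and 1.16 (adjusted p 0.116 and 0.132).

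Sc5d (chr9:42251595-42264256, minus strand), a sterol C5 desaturase, had 26.9, 20.9 and 30.1 CPM in WT, 30.8, 20.9 and 25.0 in Δ306 and 27.8, 33.0, 45.9 and 44.7 in Δ104. Its Δ93 values were 20.03 at the lowest, 22.3 at the median and 25.4 at the highest. Its Δ225 values, 26.9 at the lowest, 49.4 at the median and 64.0 at the highest, lay above all of Δ93. The differences were 1.09 ± 0.17 (adjusted p 0.000213) from Δ93 and 0.90 ± 0.22 (adjusted p 0.0109) from Δ306, and 1.08 and 0.92 (adjusted p 0.0846 and 0.152) without the low-Y libraries. Its difference of Δ225 from WT, 0.87 ± 0.22 (adjusted p 0.0897), was not called.

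Dhcr7 (chr7:143823145-143848410, plus strand), the reductase of the last step in 1 of the 2 routes to cholesterol, had 89.7, 73.8 and 103 CPM in WT, 45.6, 51.7 and 56.0 in Δ306 and 61.7, 72.5, 98.8 and 119.9 in Δ104. In Δ93 it had 40.6 at the lowest, 58.2 at the median and 74.8 at the highest, and in Δ225 43.4 at the lowest, 149.6 at the median and 191 at the highest, with the lowest Δ225 library below every Δ306 library. The differences were 1.34 ± 0.35 (adjusted p 0.0152) for Δ225 against Δ306 and 1.15 ± 0.27 (adjusted p 0.00477) against Δ93, or 1.37 and 1.12 (adjusted p 0.163 and 0.247) without the low-Y libraries. Of the other members of this stretch, Tm7sf2 (2.83 times, adjusted p 0.0222) and Ebp, a sterol isomerase (log2 0.83, adjusted p 0.0128), were higher in Δ225 than in Δ93. Neither was called against Δ306, at log2 differences of 1.28 (adjusted p 0.146) and 0.76 (adjusted p 0.0827).

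**Figure D3:**
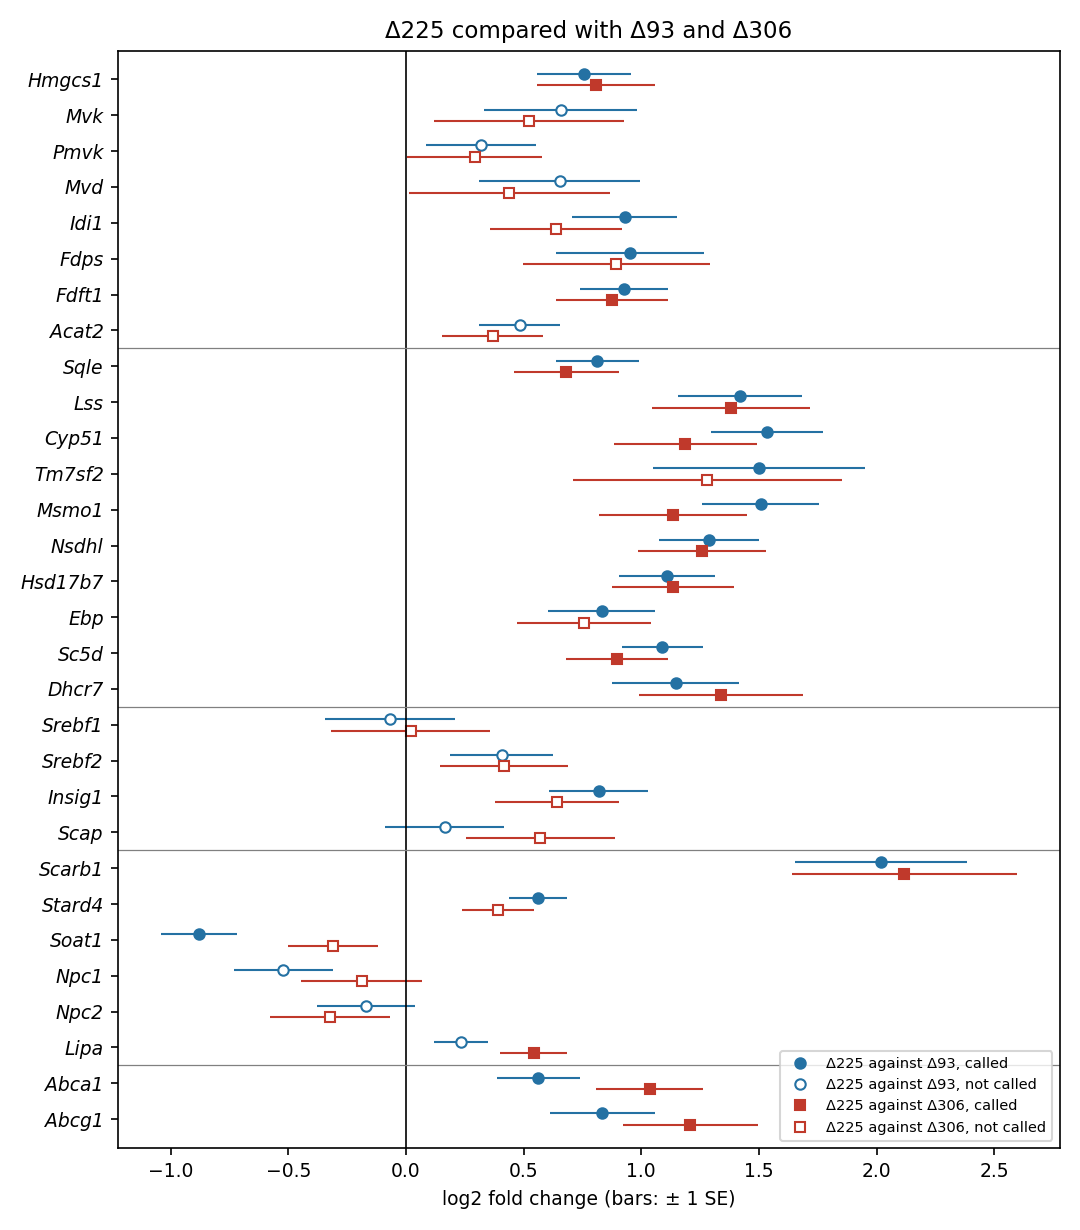
Log2 fold change (x axis) of each of the 30 genes (rows, by role) in Δ225 against Δ93 and Δ225 against Δ306, with bars of ± 1 standard error and filled symbols for called genes. The 10 genes from squalene to cholesterol lie to the right of 0 in both, and Soat1 lies to the left of 0.

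Because the genes of synthesis moved together between these groups, the stretch before the start of some of them is shown. RefSeq (GRCm38.p6) windows of 300 bases, 250 before to 50 after the first listed start, were at hand for 23 of the 30 members and 27025 genes in all. Fdps, Fdft1, Sqle, Scarb1, Stard4, Abcg1 and Npc1 are not in that table. Windows were searched on both strands for CCAAT, the box of the factor NF-Y, for TCACNCCAC, a sterol regulatory element that SREBP can bind, and for CAAGGNCA, an element of the NR5A1 kind that steroid-making cells use. CCAAT was in 19 of the 23 members' windows (82.6%) and in 37.9% of all windows. TCACNCCAC was in 1 member, Hmgcs1, 137 bases before its start (4.35% of members, 1.22% of all), and CAAGGNCA in 1, Dhcr7, 52 bases before its start (6.67% of all). A match is a description of the letters only. Hmgcs1 and Dhcr7 are printed as the members that hold these 2 elements, and Lss, Nsdhl and Hsd17b7, picked after their values were seen, as genes from squalene to cholesterol with CCAAT. Capitals mark every copy of the 3 motifs on either strand (CCAAT reads ATTGG on the other), and no marked copy overlaps another. In order, the stretches are chr13:119690101-119690350 (plus strand), chr7:143822917-143823144 (plus), chr10:76531513-76531572 (plus), chrX:72918391-72918520 (plus) and chr1:169969242-169969385 (minus), each printed 5′ to 3′ on the gene's strand and ending before the annotated start.
Hmgcs1: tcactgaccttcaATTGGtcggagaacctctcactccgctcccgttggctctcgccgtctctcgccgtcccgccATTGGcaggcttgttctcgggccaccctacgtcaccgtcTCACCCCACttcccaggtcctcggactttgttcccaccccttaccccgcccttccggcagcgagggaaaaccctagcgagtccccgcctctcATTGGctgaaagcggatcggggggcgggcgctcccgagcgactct
Dhcr7: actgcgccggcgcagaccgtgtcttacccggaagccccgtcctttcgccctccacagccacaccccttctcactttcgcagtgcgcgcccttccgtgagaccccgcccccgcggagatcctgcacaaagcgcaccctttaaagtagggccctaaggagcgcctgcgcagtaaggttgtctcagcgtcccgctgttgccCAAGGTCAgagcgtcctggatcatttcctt
Lss: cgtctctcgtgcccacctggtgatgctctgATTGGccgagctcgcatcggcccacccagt
Nsdhl: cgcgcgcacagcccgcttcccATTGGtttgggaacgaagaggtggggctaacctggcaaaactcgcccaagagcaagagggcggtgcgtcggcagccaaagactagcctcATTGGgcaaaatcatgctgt
Hsd17b7: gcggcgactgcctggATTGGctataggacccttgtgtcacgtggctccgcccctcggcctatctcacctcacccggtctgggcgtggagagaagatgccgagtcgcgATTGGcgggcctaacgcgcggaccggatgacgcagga

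Of the 8 genes from acetyl-CoA to squalene, 4 were called higher in Δ225 than in Δ93 and 2 were called higher in Δ225 than in Δ306. None was lower. Their median log2 differences were 0.71 and 0.58. Fdft1, the squalene synthase, was higher in both, by 0.92 ± 0.19 (adjusted p 0.00154) against Δ93 and 0.88 ± 0.24 (adjusted p 0.0188) against Δ306. So was Hmgcs1, by 0.76 ± 0.20 (adjusted p 0.0104) and 0.81 ± 0.25 (adjusted p 0.0376); its stretch printed above holds both the sterol element and CCAAT. Fdps and Idi1, the isopentenyl diphosphate isomerase, were called against Δ93 and not against Δ306, at 0.95 (adjusted p 0.0367) and 0.93 (adjusted p 0.00591).

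Against WT none of these 8 genes was called, with medians of −0.38 in Δ306, −0.51 in Δ93, 0.19 in Δ225 and −0.10 in Δ104. The kinases and the decarboxylase of the mevalonate steps, Mvk, Pmvk and Mvd, were called in no comparison. Their log2 differences in Δ225 against Δ93 were 0.66, 0.32 and 0.65 (adjusted p 0.156, 0.344 and 0.18). Acat2 was at 0.48 with an adjusted p of 0.0512. The sum over the 8 genes was 725, 697 and 928 CPM in WT and 631, 627 and 639 in Δ306. It was 555 at the lowest, 602 at the median and 640.2 at the highest in Δ93, and 465 at the lowest, 1091 at the median and 1377 at the highest in Δ225.

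Of the 4 genes of sterol sensing, 1 was called in 1 comparison. Insig1, which retains the SREBP complex in the endoplasmic reticulum, was higher in Δ225 than in Δ93 by 0.82 ± 0.21 (adjusted p 0.00907). Srebf2 and Srebf1, which encode the SREBP factors themselves, were called nowhere, with log2 differences of 0.41 and −0.07 in that comparison (adjusted p 0.192 and 0.886). Scap stood at 177, 151 and 131 CPM in WT and 64.6, 66.7 and 74.7 CPM in Δ306, with no overlap. Its log2 fold change of −1.16 ± 0.36 (adjusted p 0.0583) did not pass the threshold.

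Scarb1 (chr5:125277087-125341094, minus strand), the receptor that takes up cholesterol esters from high-density lipoprotein, had the largest absolute log2 fold change of the members in each of the 4 comparisons that called it. It stood at 377, 226 and 281 CPM in WT and 94.1, 93.6 and 75.0 CPM in Δ306. In Δ93 it stood at 65.8 at the lowest, 82.5 at the median and 142 at the highest. In Δ225 it was at 111 at the lowest, 454 at the median and 569.8 at the highest. WT lay above every Δ306 and Δ93 library, and the 2 lowest Δ225 libraries, replicates 3 and 1, lay below the WT range. Scarb1 was lower than WT by a log2 fold change of −1.75 ± 0.51 (adjusted p 0.0438) in Δ306 and −1.65 ± 0.41 (adjusted p 0.0112) in Δ93. It was higher in Δ225 than in Δ93 by 2.02 ± 0.36 (adjusted p 0.000613) and than in Δ306 by 2.12 ± 0.48 (adjusted p 0.00699). Without the low-Y libraries the 4 values were −1.69, −1.88, 2.11 and 1.92 (adjusted p 0.25, 0.145, 0.0946 and 0.142).

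The Leydig marker Cyp11a1, whose enzyme uses cholesterol, stood beside Scarb1 at 391.6, 177 and 294 CPM in WT, 6.85, 12.2 and 2.26 in Δ306 and 1.22 at the lowest, 8.14 at the median and 79.4 at the highest in Δ93. In Δ225 replicates 1 to 6 Scarb1 was at 172, 399, 111, 519, 508 and 569.8 CPM and Cyp11a1 at 181, 616, 63.0, 768, 718 and 934 CPM. Replicates 1 and 3 were the lowest of Δ225 for both genes. Replicates 1 to 3 had 11.6, 23.3 and 20.2 M counts and replicates 4 to 6 had 41.3 to 46.8 M. Replicate 2, close to replicate 3 in depth, was above it for both genes; the part of depth in these values was not tested.

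Soat1 (chr1:156424525-156474331, minus strand), which esterifies cholesterol for storage, was the 1 member called higher in a deletion against WT. It had 127, 111 and 99.1 CPM in WT, 172, 182 and 201 in Δ306 and 325, 258, 232 and 124 in Δ104. It had 135 at the lowest, 152 at the median and 161 at the highest in Δ225. In Δ93 it had 223 at the lowest, 282 at the median and 337 at the highest. Each Δ93 library lay above each WT and Δ225 library, by a log2 fold change of 1.29 ± 0.21 (adjusted p 0.000907) against WT, and Δ225 was lower than Δ93, at −0.88 ± 0.16 (adjusted p 0.000677). Its differences from WT in Δ104, 1.06 ± 0.22 (adjusted p 0.0621), and in Δ306, 0.72 ± 0.23 (adjusted p 0.061), did not pass. Without the low-Y libraries the difference of Δ93 from WT had an adjusted p of 0.0563, and that of Δ225 from Δ93 was −0.91 (adjusted p 0.0813).

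The other 4 genes of this role gave 2 calls. Stard4, a cytosolic sterol carrier, was higher in Δ225 than in Δ93 by 0.56 ± 0.12 (adjusted p 0.00293), and Lipa, the lysosomal acid lipase that frees cholesterol from esters, was higher against Δ306 by 0.54 ± 0.14 (adjusted p 0.0164). Npc1 and Npc2, which pass cholesterol out of the lysosome, were called nowhere. Their log2 fold changes in Δ93 against WT were 0.57 and −0.21 (adjusted p 0.164 and 0.649).

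**Figure D4:**
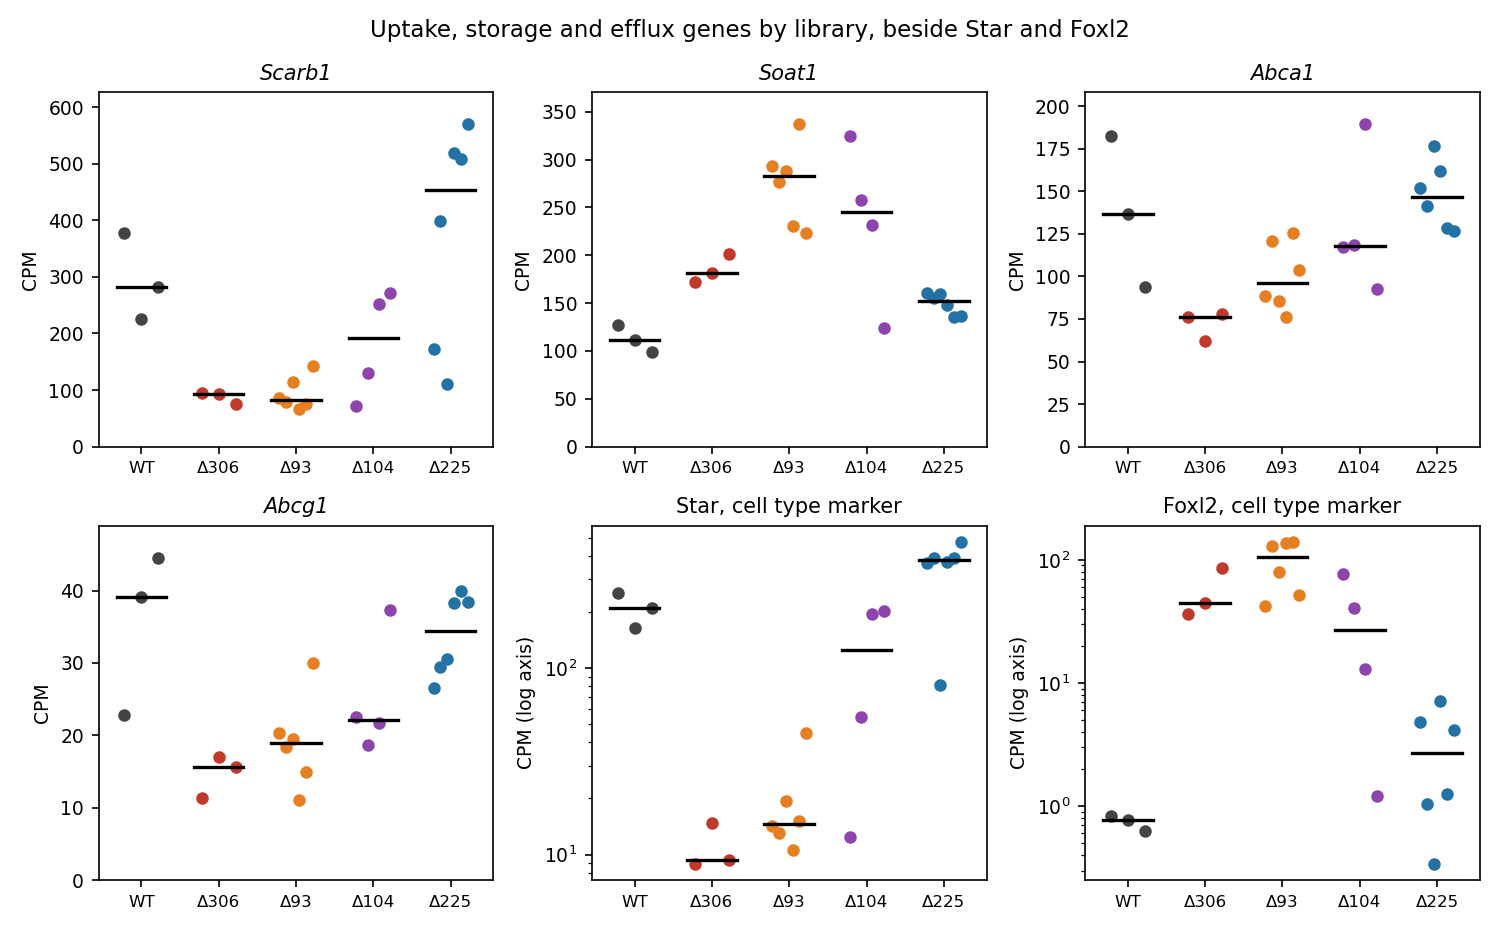
CPM (y axis) of Scarb1, Soat1, Abca1 and Abcg1, and of Star and Foxl2 on a log axis, by library in the groups of the table of all deletions. Points are in replicate order and the black line is the median of the group. Scarb1 sits between 65.8 and 142 CPM in Δ93 and between 226 and 377 CPM in WT, whereas Soat1 sits between 223 and 337 CPM in Δ93 and between 99.1 and 127 CPM in WT.

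Both exporters were lower in Δ306 than in WT and higher in Δ225 than in Δ306 and in Δ93. Abca1 (chr4:53030787-53159895, minus strand), which loads cholesterol on apolipoprotein A-I, had 182, 136 and 93.8 CPM in WT, 76.4, 61.9 and 78.1 in Δ306 and 117, 118, 189 and 92.5 in Δ104. Its Δ93 values were 76.2 at the lowest, 96.2 at the median and 125 at the highest, and its Δ225 values were 126 at the lowest, 146 at the median and 177 at the highest. Δ306 lay below WT and Δ225 lay above both Δ306 and Δ93 without overlap. The log2 fold changes were −0.93 ± 0.25 (adjusted p 0.0312) in Δ306 against WT, 1.04 ± 0.23 (adjusted p 0.00555) in Δ225 against Δ306 and 0.56 ± 0.18 (adjusted p 0.0282) in Δ225 against Δ93. Without the low-Y libraries these were −1.04, 1.09 and 0.49 (adjusted p 0.121, 0.0598 and 0.36). In Δ93 against WT the value of −0.46 ± 0.21 (adjusted p 0.157) was not called.

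Abcg1 (chr17:31057675-31117988, plus strand), which exports cholesterol to high-density lipoprotein, had 22.8, 39.2 and 44.5 CPM in WT, 11.3, 17.0 and 15.7 in Δ306 and 22.5, 18.7, 21.7 and 37.3 in Δ104. Its values were 11.01 at the lowest, 18.9 at the median and 29.96 at the highest in Δ93 and 26.5 at the lowest, 34.5 at the median and 40.0 at the highest in Δ225. Δ306 did not overlap with WT or Δ225, while Δ93 overlapped with both. Its log2 fold change against WT was −1.27 ± 0.32 (adjusted p 0.0217) in Δ306 and −0.90 ± 0.26 (adjusted p 0.0258) in Δ93. Δ225 was higher by 1.21 ± 0.29 (adjusted p 0.00904) against Δ306 and 0.83 ± 0.22 (adjusted p 0.0109) against Δ93. Without the low-Y libraries the 4 values were −1.36, −0.91, 1.24 and 0.79 (adjusted p 0.11, 0.166, 0.0743 and 0.213).

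Against WT, then, Δ306 had Scarb1, Abca1 and Abcg1 called lower and no gene of synthesis. In 18 of the 30 members the Δ306 libraries did not overlap with WT. The share of all genes without such overlap was not counted, so this number says nothing particular to the members. The 3 calls depended on each library: without any 1 of the 3 Δ306 replicates or without WT replicate 2 there were 0 calls, and without WT replicate 1 or 3 there was 1. These fits called 0.856% to 5.48% of all genes. Fitted with WT alone, Δ306 had 12 members called, with 17.5% of all genes called. In the separate table of these 2 groups it also had 12, with 18.8%. Neither fit used the spread within the other deletions, and the part of that spread in these counts was not tested.

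In Δ93 the 5 members called lower were Scarb1, Cyp51, Lss, Abcg1 and Sqle, and Soat1 was called higher. Fdft1 (−0.66, adjusted p 0.0527) and Nsdhl (−0.72, adjusted p 0.0586) lay just outside the threshold. The 6 calls became 2 when replicates 1 or 3 of WT or replicate 5 of Δ93 were left out, and 3 when replicate 2 of WT or replicates 2 or 4 of Δ93 were. Soat1 was called in each of these leave-one-out fits. The fits without 1 library called 6.25% to 15.7% of all genes. Fitted with WT alone, Δ93 had 18 members called, with 20.3% of all genes called.

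Leaving out each library in turn kept 17 of the 20 calls of Δ225 against Δ93 in every fit. The exceptions were Tm7sf2 (adjusted p up to 0.0618, lost without Δ225 replicate 5 or 6), Fdps (up to 0.0965, lost in 9 of 12 fits, all but those without Δ225 replicates 1 and 3 and Δ93 replicate 6) and Abca1 (up to 0.0862, lost when any 1 of Δ225 replicates 2 to 4 or of Δ93 replicates 1, 3, 4 and 6 was left out). Of the 14 calls of Δ225 against Δ306, 3 held in every fit, those of Nsdhl, Abca1 and Abcg1. Scarb1 lost its call without Δ306 replicate 3 (adjusted p 0.0533) and Hsd17b7 without Δ306 replicate 2 (0.0512). Cyp51, Lss, Sc5d and Lipa lost theirs without Δ306 replicate 2 or 3 (up to 0.0770, 0.0618, 0.0691 and 0.106), and Dhcr7, Msmo1 and Fdft1 without any 1 of the Δ306 replicates (up to 0.0641, 0.0887 and 0.0843). Hmgcs1 kept its call only without Δ225 replicate 3 or 4 (up to 0.124 in the other 7 fits) and Sqle only without Δ225 replicate 1 or 3 (up to 0.157). In Δ93 against WT, Scarb1 was lost without WT replicate 1 (adjusted p 0.0732), Abcg1 without Δ93 replicate 5 and without either of WT replicates 2 and 3 (up to 0.156), and Cyp51 when any 1 of WT replicates 1 and 3 and Δ93 replicates 2, 4 and 5 was left out (up to 0.117). Sqle kept its call only without Δ93 replicate 6 (up to 0.248 in the other 8 fits), Lss was lost in all 9 (0.0574 to 0.169), and Soat1 held in every fit.

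**Figure D5:**
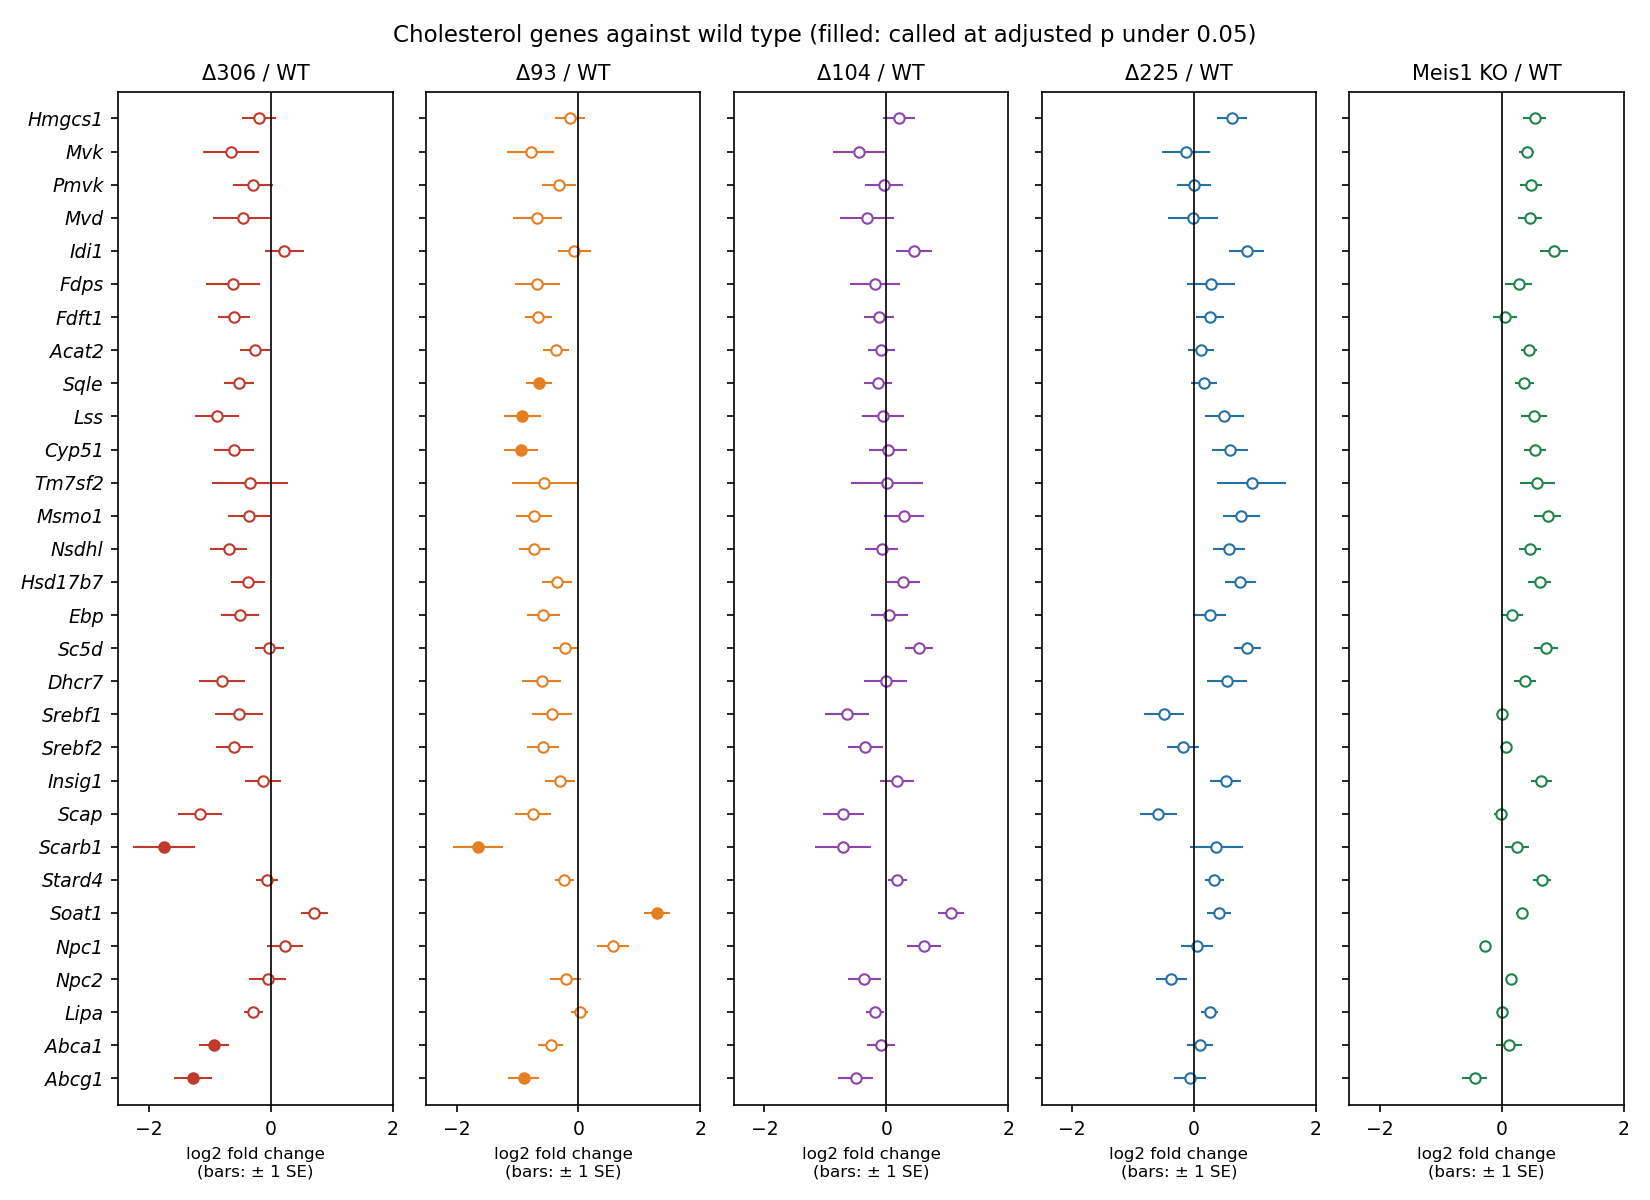
Log2 fold change against WT (x axis) of the 30 genes (rows, by role) in each of the 4 deletions and in the Meis1 KO, with bars of ± 1 standard error and filled symbols for called genes. Called genes are Scarb1, Abca1 and Abcg1 in Δ306 and Scarb1, Cyp51, Lss, Sqle, Abcg1 and Soat1 in Δ93; the other 3 comparisons have none.

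No member was called in Δ225 against WT. At an unadjusted p under 0.05 there were 7 members, while 16.1% of all genes had such a p, and DESeq2 called 2 members, Sc5d and Idi1, and 4.15% of all genes. The 10 genes from squalene to cholesterol all had positive estimates against WT, with a median of 0.58. The spread within Δ225 was wide: the ratio of the highest to the lowest library had a median of 2.90 over the members, against 1.37 in WT, and reached 8.89 for Tm7sf2. The library labelled Δ225 replicate 3 was the lowest of its group for 20 of 30 members. Without it 3 members were called against WT, with 0.43% of all genes, and 19 against Δ306, with 13.4% of all genes. Leaving out Δ306 replicate 1, 2 or 3 brought the latter count to 9, 4 and 4, with 9.59%, 5.39% and 3.71% of all genes called.

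Tm7sf2, with the widest ratio within Δ225, had 6.54, 19.1, 5.66, 31.8, 46.4 and 50.3 CPM in replicates 1 to 6. Replicates 4 to 6 had more counts in all than replicates 1 to 3, which had 11.6 to 23.3 M. The part of depth was not tested.

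The 4 Δ104 libraries differed widely, and most of the pathway differed with them. Replicate 1 was the lowest for 26 of the 30 members and replicate 4 the highest for 23. The sum over the 10 genes from squalene to cholesterol was 381, 519, 751 and 901 CPM in replicates 1 to 4, from the level of Δ93 to that of Δ225. Scarb1 was at 71.3, 131, 252 and 271 CPM, Cyp11a1 at 0.694, 101, 373 and 457 CPM and the pre-granulosa gene Foxl2 at 77.0, 40.5, 13.0 and 1.22 CPM in the same libraries. Both the sum of synthesis genes and Cyp11a1 were thus lowest in the replicate with the most Foxl2 and highest in the one with the least; 4 libraries are too few for a correlation. With this spread no member was called against WT. At an unadjusted p under 0.05 there were 4 members, with 15.7% of all genes at such a p, and DESeq2 called 1 member, Soat1, and 2.68% of all genes.

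The Meis1 KO had no member called either. Of the 30 estimates 26 were above 0, where the median log2 fold change over all genes was 0.00. The members were read in the same libraries, so their signs are not independent of each other. Stard4 had 125, 115, 92.6 and 80.2 CPM in the KO and 66.2, 61.4 and 68.3 CPM in WT, and the log2 difference was 0.66 ± 0.15 (adjusted p 0.0686). Insig1 had 142, 134, 108 and 95.2 and 68.7, 67.4 and 92.9 CPM, with 0.65 ± 0.17 (adjusted p 0.0935). Neither gene overlapped between the groups and neither passed the threshold; the pair was picked after its values were seen, as the 2 smallest adjusted p.

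Sums over the 10 genes from squalene to cholesterol were 1197, 1002, 845 and 720.5 CPM in the KO and 656, 563 and 770.2 CPM in WT, which overlap. KO replicate 1 was the highest of its group for 27 members and replicate 4 the lowest for 25. At an unadjusted p under 0.05 there were 16 members, while 19.3% of all genes had such a p. DESeq2 called 10 members, 9 higher and 1 lower, and 9.81% of all genes. Without WT replicate 1 edgeR called 7 members, 5 higher and 2 lower, and 12.9% of all genes, 6.35% higher and 6.56% lower. Fetal Leydig markers summed to 1444 to 2299 CPM in the KO and 986 to 1706 CPM in WT with 0 of 5 called, Scarb1 had 482, 341, 370.4 and 312 and 404, 244 and 297 CPM, and the part of Leydig cells was not tested. Other lists also differed: Sertoli-cell markers summed to 1482 to 1956 CPM in the KO and 2075 to 2562 in WT with 0 of 6 called, and erythroid markers to 596 to 1086 and 1345 to 1901 CPM with 2 of 5 called lower. The 4 Y-linked genes summed to 3.67 to 15.8 and 33.3 to 81.6 CPM with 1 called lower, and pre-granulosa markers to 99.4 to 130.3 and 69.1 to 120.3 CPM with 1 of 6 called higher. Their part was not tested either.

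Among 23 further genes of sterol handling, 7 were called in Δ225 against Δ93, 4 higher and 3 lower (30.4%, beside 20.8% of all genes). In Δ225 against Δ306, 3 were called, all higher (13.0%, beside 13.2% of all genes called and 6.47% called higher). Against WT, 3 were called lower in Δ306 (13.0%, all genes 6.43%), and 2 were called higher and 4 lower in Δ93 (26.1%, all genes 14.1%). In the Meis1 KO 1 was called higher (4.35%, all genes 1.8%), Mbtps2, named after its value was seen (0.41, adjusted p 0.0408). None was called in Δ225 or Δ104 against WT. The largest called fall against WT was that of Gramd1b, which moves cholesterol from the plasma membrane to the endoplasmic reticulum. It had 192, 121 and 123 CPM in WT and 27.8, 33.3 and 19.3 in Δ306, with log2 fold changes of −2.44 ± 0.51 (adjusted p 0.00867) in Δ306 and −2.21 ± 0.40 (adjusted p 0.00163) in Δ93 against WT. Vldlr, a lipoprotein receptor, fell in Δ93 with a log2 fold change of −1.55 ± 0.34 (adjusted p 0.00551). Nr1h3, which encodes the sterol-activated factor LXR-alpha, a known activator of Abca1 and Abcg1, rose in Δ93 by 1.66 ± 0.55 (adjusted p 0.0475). Its level was low in both groups, at 0.330 to 0.578 CPM in WT and 0.990 to 2.94 CPM in Δ93. Soat2, the other sterol O-acyltransferase, was lower in Δ225 than in Δ93, at −2.98 ± 0.89 (adjusted p 0.0206). Single libraries decided some of these calls: Gramd1b in Δ306 had an adjusted p of 0.0634 without Δ306 replicate 3, Soat2 one of 0.0819 without Δ93 replicate 4, and Vldlr in Δ93 a log2 fold change of −0.92 (adjusted p 0.109) without WT replicate 1. Nr1h3 lost its call without any 1 WT library or Δ93 replicate 2, 4 or 5 (adjusted p up to 0.197), and Mbtps2 kept its call only without WT replicate 1 (up to 0.124).

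The fatty acid branch that SREBP also controls was read through 8 genes. Of these, 5 were called higher in Δ225 than in Δ93 and 4 were called higher in Δ225 than in Δ306, with none called lower. The estimates in Δ225 against Δ93 were higher for 6 of the genes and lower for 2, and against Δ306 all 8 were higher. Against WT, 4 were called lower in Δ93 and 1 in Δ306. Of all genes, 20.8%, 13.2%, 14.1% and 6.43% were called in either direction in these comparisons, in that order. Me1, the malic enzyme that supplies NADPH, had 391, 398 and 406 CPM in WT, 145, 161 and 75.8 in Δ306 and 76.4, 223, 406 and 417 in Δ104. It fell in Δ93 against WT, at −1.46 ± 0.40 (adjusted p 0.0192), and was higher in Δ225 than in Δ93, at 1.74 ± 0.35 (adjusted p 0.0015). Elovl6, a fatty acid elongase, gave −0.90 ± 0.23 (adjusted p 0.0143) and 1.19 ± 0.20 (adjusted p 0.000319) in the same comparisons. Scd1, a desaturase, was the 1 gene of these 8 called in Δ225 against WT, at 1.76 ± 0.36 (adjusted p 0.0447), where no cholesterol gene was called. That call of Scd1 was lost without any 1 WT library or Δ225 replicate 2, 5 or 6 (adjusted p up to 0.356). The fall of Me1 in Δ93 was lost without any 1 WT library (up to 0.0604) and that of Elovl6 without WT replicate 3 (0.0508).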

How the data were processed

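Per the labels' protocols, gonads were dissected free of the mesonephros and frozen, and stranded libraries were made from poly(A) RNA. The authors deposited raw counts per gene, and the submitters' processing notes name STAR 2.7.10a, Subread, featureCounts, DESeq2 and the mm10 build. Columns were matched to samples by name; in the separate table of WT and Δ306 the mutant columns carry only the gene's name and were taken as Δ306, since the stated design lists that deletion.

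The test was the quasi-likelihood F-test of edgeR 4.0.16 (R 4.3.3), after filterByExpr by group and TMM, with Benjamini-Hochberg adjustment over all genes. Of the table of all deletions, 22 libraries were fitted together (22941 genes tested, 17 residual degrees of freedom), and the Meis1 KO was fitted with WT in its own table (7 libraries, 16791 genes, 5). SEs of log2 fold changes were taken as the unshrunk change over the root of its F. Values in CPM are relative to TMM-scaled library sizes. DESeq2 1.42.0, other scalings and filters, a replicate block, left-out libraries and fits of 2 groups were the alternatives. Total counts per library ran from 11.6 to 53.4 M.

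The members, the lists and the tests were chosen with earlier results of these data known. Values by library, or the lowest, median and highest in groups over 5, are given for the 12 members called in the most comparisons, ties going to the largest log2 fold change. Of the further lists at most 4 called genes with the largest change are named, and Mbtps2 besides. Gene coordinates are GENCODE M21 on GRCm38. The authors' own deposited comparisons were not used here.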

Additional observations from a re-analysis of the deposited data

Results flagged for a closer look

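Dixon's criterion was applied to 120 groups of 4 to 6 libraries (30 genes in 4 groups). In 11 of these, 1 library had a gap to the others that was large for the group's range. Chance gives about 1 in 20 where groups are independent. The 30 genes share the libraries of each group, so the 11 cannot be set against that rate. The library labelled Δ225 replicate 3 was the low one in 7 of the 11. Its CPM was 63.5 for Idi1 (the other 5 libraries 147 to 201), 72.1 for Fdft1 (122 to 146), 79.5 for Cyp51 (178 to 223) and 52.5 for Msmo1 (115 to 156). It was 26.6 for Nsdhl (56.0 to 72.5), 23.0 for Hsd17b7 (53.9 to 69.4) and 52.0 for Insig1 (105 to 152). This is also the library with the highest Fgf9 of its group, 5.66, 5.21, 16.5, 6.36, 4.69 and 3.69 CPM in replicates 1 to 6.

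Δ93 replicate 1 was low for Mvk at 15.7 CPM (others 22.2 to 25.8), Srebf1 at 50.7 CPM (71.5 to 80.4) and Npc2 at 97.5 CPM (138 to 170); it had 20.6 M counts and the other Δ93 libraries 38.3 to 46.9 M. Δ93 replicate 4 was low for Stard4 at 38.9 CPM (52.8 to 56.3).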

How the results depend on the processing

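Of 43 called gene results, 828 recomputed values kept the call in 646 and lost it in 182, and 0 changed direction. Counts of members called moved by over 1.5 times as follows; where no other reason is given the cause was not tested. At an adjusted p under 0.01 the counts were 0 (Δ306 against WT), 1 (Δ93 against WT) and 5 (Δ225 against Δ306), and under 0.1 they were 5 in Δ306, 1 in Δ225, 1 in Δ104 and 2 in the Meis1 KO against WT. DESeq2 called 5 in Δ306, 2 in Δ225, 1 in Δ104 and 10 in the Meis1 KO. With only the 2 groups compared, 12 were called in Δ306 and 18 in Δ93, and the separate table gave 12 in Δ306. Without the 7 libraries low in Y-linked genes, a fit with fewer samples, 0 were called in Δ306 against WT, 0 in Δ93 against WT, 0 in Δ225 against Δ93 and 0 in Δ225 against Δ306. Leaving out 1 library at a time gave 0 to 1 in Δ306, 0 to 3 in Δ225 (3 without replicate 3), 0 to 1 in Δ104 (1 without replicate 4), 2 to 6 in Δ93 and 0 to 7 in the Meis1 KO (7 without WT replicate 1). It gave 18 to 23 in Δ225 against Δ93 and 4 to 19 in Δ225 against Δ306. The members' median kept its sign in 6 of the 7 comparisons and ran from −0.25 to 0.11 in Δ104.

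A replicate block gave 5 in Δ306, 3 in Δ225, 1 in Δ104 and 11 in Δ93 against WT, 0 in the Meis1 KO, 20 in Δ225 against Δ93 and 10 in Δ225 against Δ306. Of all genes it called 5.63%, 7.14%, 2.05%, 14.6%, 0.191%, 20.2% and 14.8% in that order. Same-numbered libraries of different groups had correlations of deviations from −0.39 to 0.53 (median 0.03, 35 pairs) in the table of all deletions. Differently numbered ones had a median of 0.00 there (154 pairs). In the Meis1 table the correlations were −0.12 to 0.45 (median 0.33, 3 pairs), beside a median of −0.29 for different numbers (9 pairs). Whether same-numbered samples are paired was not settled, 3 pairs being too few, and the main fits assumed no pairing.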
